A study of Homo sapiens with 6 samples.

Results

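The genes described here encode the aminoacyl-tRNA synthetases of the cytosol and of the mitochondria, with the scaffold protein AIMP1. They were taken from a list of 38 genes by symbol, and 34 of them had at least 1 probe set whose annotation names that gene alone, out of 19775 such genes on the array. Of the 34, 16 encode cytosolic enzymes or their subunits, 2 (GARS1 and KARS1) encode enzymes that serve both compartments, 15 encode mitochondrial enzymes and 1 is AIMP1. MARS1, QARS1, TARS2 and AIMP2 had no such probe set and were not analysed here. Of a gene's probe sets, the one with the highest mean level on the 6 arrays stands for it.

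ARPE-19, an established human cell line from retinal pigment epithelium, was exposed to SRPIN803 at 10 µM for 4 h (3 arrays) or to the solvent DMSO at 0.1% for 4 h (3 arrays). SRPIN803 is known as an inhibitor of the splicing kinase SRPK1 and of protein kinase CK2. The labels name no genetic change in either group; all cells grew in medium with 10% serum and gave total RNA for Affymetrix 3′ expression arrays. Nothing says that arrays of a group came from separate cultures, so the spread behind each p-value may be purely technical.

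Aminoacyl-tRNA synthetases join each amino acid to its tRNA, the step that fixes the genetic code. Nuclear genes encode a cytosolic and, for most amino acids, a separate mitochondrial enzyme, whose product is imported to serve translation of the respiratory chain subunits made inside the organelle. Several cytosolic enzymes sit in a multi-synthetase complex held together by AIMP scaffold proteins. Many cytosolic synthetase genes are known targets of ATF4, the transcription factor of the amino acid response, which binds a composite element with C/EBP partners.

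Promoter sequences are shown for the 6 genes for enzymes of the cytosol (GARS1 serving both compartments) and the 1 mitochondrial gene whose window held that composite element, searched as TGATGNAAN on both strands. Windows run from 250 bases before to 50 bases after a RefSeq gene start (build GRCh38.p14), and 28 of the 34 genes had at least 1 window. Capitals mark the match, and each sequence is written 5′ to 3′ on the strand of the gene.
AARS1, chr16:70289676-70289704, minus strand: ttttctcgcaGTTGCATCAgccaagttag
CARS1, chr11:3057408-3057436, minus strand: cggggcggcgGTTGCATCAgattctagga
GARS1, chr7:30594834-30594862, plus strand: ttacgcggcgATTTCATCAtgctccgagc
IARS1, chr9:92293693-92293721, minus strand: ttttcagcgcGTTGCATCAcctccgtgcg
NARS1, chr18:57621804-57621832, minus strand: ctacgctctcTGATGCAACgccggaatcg
TARS1, chr5:33440956-33440984, plus strand: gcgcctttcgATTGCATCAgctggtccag
YARS2, chr12:32756076-32756104, minus strand: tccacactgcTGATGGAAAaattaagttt

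The element was present for 6 of 14 genes for enzymes of the cytosol or of both compartments (42.9%) and for 1 of 13 mitochondrial genes (7.69%), against 4.45% of all 27303 genes with a window and 3.61% of all 35114 windows. Genes can have several windows. A match is a description of letters and does not show that a factor binds there.

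The promoter of MARS2, the mitochondrial methionyl-tRNA synthetase gene, is shown because MARS2 was the 1 gene of the 34 that passed the test. Capitals in its 250 bases before the start (chr2:197705119-197705368, plus strand) mark an E-box, searched as CACGTG, which reads the same on both strands and is known as the site of MYC and related factors.
MARS2: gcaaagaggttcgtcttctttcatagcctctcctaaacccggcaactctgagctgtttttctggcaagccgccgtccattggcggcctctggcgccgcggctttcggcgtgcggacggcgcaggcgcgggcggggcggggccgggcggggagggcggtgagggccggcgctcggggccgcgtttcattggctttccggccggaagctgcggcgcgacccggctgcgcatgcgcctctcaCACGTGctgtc

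The E-box was found for 3 of 13 mitochondrial genes (CARS2, EARS2 and MARS2) and 1 of 14 of the others (IARS1), against 8.78% of all genes and 7.26% of windows. None of these E-boxes overlapped a composite element.

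Of these transcripts 1 passed the test, and a missing call does not show that a transcript was unchanged. MARS2 fell 1.45-fold, and none of the other 33 genes passed the threshold, an adjusted p under 0.05 in limma's moderated test with Benjamini-Hochberg adjustment over all 19775 genes. So 1 of 34 genes was called lower (2.94%), against 2.37% of all genes, and 0 of 34 were called higher, against 3.46% of all genes. These shares lie near the background, as does the first against the 4.31% called lower among the 9211 genes at least as bright as MARS2. Of the 34 changes 22 lay below 0 (64.7%), against 43.9% of all genes, and their median log2 change was -0.04, against 0.02 over all genes. The groups did not overlap in 11 of 34 (against 25.6% of all genes), with SRPIN803 lower in 9 (26.5%, against 10.4%) and higher in 2 (5.88%, against 15.2%). The 34 genes are bright, with a median level at the 83.9th percentile of all genes. No share of non-overlap was computed for genes of like level, here or for the groups below. In whole cultures, fewer cells of a kind and less of a transcript per cell cannot be told apart.

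**Figure D1:**
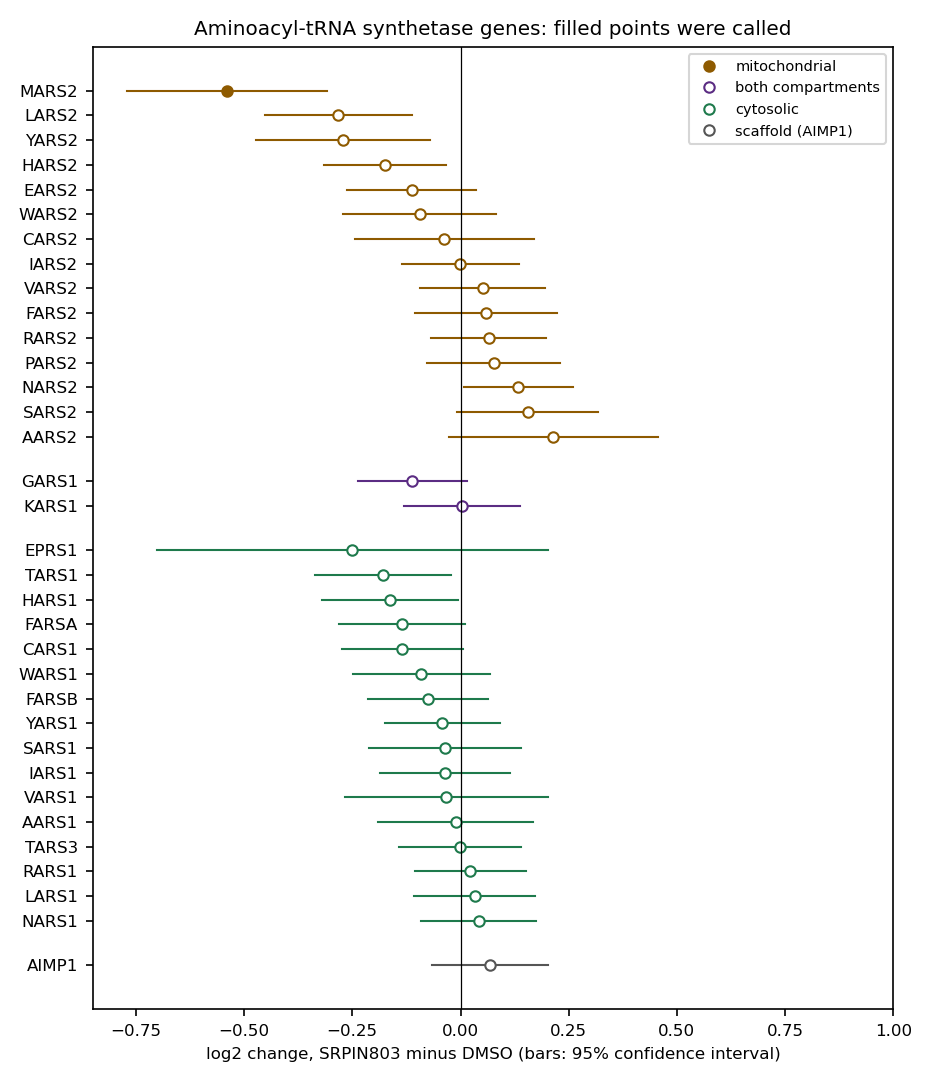
Log2 change (SRPIN803 minus DMSO) of each of the 34 genes with its 95% confidence interval, grouped by compartment. The 1 filled point is MARS2, at -0.54, and the interval of EPRS1 is the widest among the cytosolic enzymes.

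MARS2 charges mitochondrial tRNA with methionine, which serves both initiation and elongation in the organelle. Its log2 level was 6.53, 6.83 and 6.54 in SRPIN803 cells and 7.18, 7.06 and 7.28 in DMSO cells. The groups did not overlap, and SRPIN803 replicate 2 lay closest to the DMSO arrays. The means were 6.63 ± 0.17 in SRPIN803 cells and 7.17 ± 0.11 in DMSO cells (SD, n = 3 each). The log2 change was -0.54 ± 0.10 (SE), a 1.45-fold fall (95% interval 1.24 to 1.71), with limma's adjusted p = 0.0244. The fall rests on a single probe set, the only one that names MARS2, and the call was lost in 5 of 6 refits that each dropped a single array. In those 6 refits the log2 change was -0.64 to -0.49 and limma's adjusted p ran from 0.0154 (without SRPIN803 replicate 2) to 0.0998 (without DMSO replicate 3). Its cytosolic counterpart, MARS1, was not analysed here.

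LARS2, YARS2 and HARS2 encode the mitochondrial enzymes for leucine, tyrosine and histidine. Their groups did not overlap either, although none was called. LARS2 had log2 levels of 8.47, 8.49 and 8.53 in SRPIN803 cells and 8.64, 8.86 and 8.83 in DMSO cells. Its log2 change was -0.28 ± 0.07 (limma's adjusted p = 0.0685). The lower values in SRPIN803 cells were seen on both LARS2 probe sets. The dimmer one read 8.04, 8.02 and 7.79 in SRPIN803 cells and 8.29, 8.26 and 8.30 in DMSO cells, a log2 change of -0.33 ± 0.08 (limma's adjusted p = 0.0992 over all probe sets).

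YARS2 had log2 levels of 8.45, 8.53 and 8.52 in SRPIN803 cells and 8.80, 8.91 and 8.60 in DMSO cells, and DMSO replicate 3 lay closest to the SRPIN803 arrays. Its log2 change was -0.27 ± 0.09 (limma's adjusted p = 0.126). HARS2 read 9.17, 9.27 and 9.14 in SRPIN803 cells and 9.38, 9.39 and 9.33 in DMSO cells, a log2 change of -0.17 ± 0.06 (limma's adjusted p = 0.162). YARS2 and HARS2 have 1 probe set each.

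The other mitochondrial genes lay on both sides of 0. NARS2, for asparagine, read 9.53, 9.54 and 9.53 in SRPIN803 cells and 9.38, 9.38 and 9.44 in DMSO cells, with no overlap, at a log2 change of 0.13 ± 0.05 (limma's adjusted p = 0.229). SARS2, for serine, was also higher on every SRPIN803 array, at 0.15 ± 0.07 (limma's adjusted p = 0.281). The largest positive change was that of AARS2, for alanine, at 0.21 ± 0.10, with overlapping groups. Across the 15 mitochondrial genes, log2 changes ran from -0.54 to 0.21 with a median of -0.0002, and 8 lay below 0. That median took either sign when a single array was dropped, from -0.03 (without SRPIN803 replicate 3) to 0.03 (without DMSO replicate 3), with 6 to 8 of 15 below 0. The groups did not overlap, with SRPIN803 lower, in 4 of 15 (26.7%, against 10.4% of all genes) and, with SRPIN803 higher, in 2 of 15 (13.3%, against 15.2%).

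**Figure D2:**
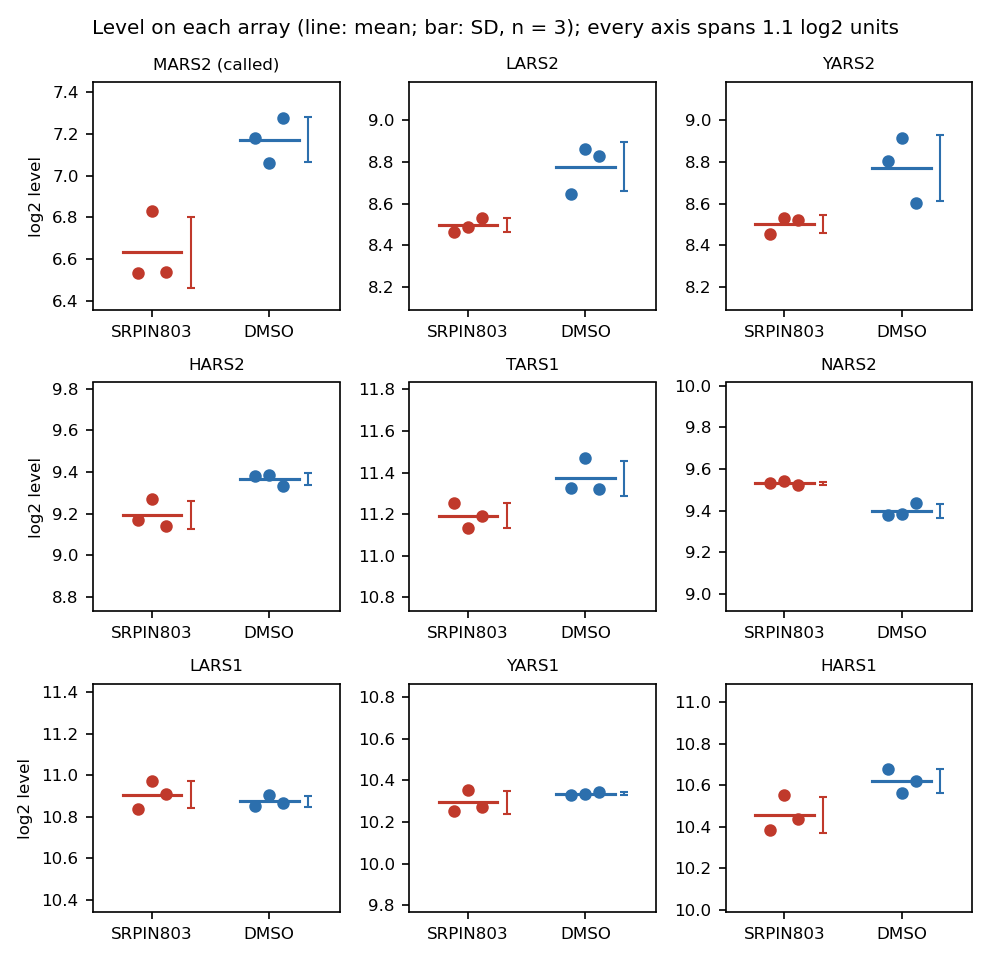
Log2 level of 9 genes on each array, SRPIN803 left of DMSO, with the group mean as a line and its SD as a bar (n = 3); every vertical axis spans 1.1 log2 units. MARS2 shows the widest gap between groups, NARS2 is higher in SRPIN803 cells, and LARS1 and YARS1 overlap.

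Of the 18 genes for enzymes of the cytosol or of both compartments, 0 were called, and 2 (TARS1 and HARS1) had an unadjusted p under 0.05 in limma (11.1%, against 19.5% of all genes). On the same measure 5 of the 15 mitochondrial genes (33.3%) and 7 of all 34 genes (20.6%) had a p under 0.05. TARS1, the cytosolic threonyl-tRNA synthetase gene, read 11.25, 11.13 and 11.19 in SRPIN803 cells and 11.32, 11.47 and 11.32 in DMSO cells. Its groups did not overlap, and the log2 change was -0.18 ± 0.07 (limma's adjusted p = 0.196). HARS1, for histidine, read 10.38, 10.55 and 10.44 in SRPIN803 cells and 10.68, 10.56 and 10.62 in DMSO cells. Its log2 change was -0.16 ± 0.07 (limma's adjusted p = 0.238), and SRPIN803 replicate 2 almost touched DMSO replicate 2.

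CARS1 for cysteine, FARSA (the catalytic subunit for phenylalanine) and GARS1 for glycine were also lower on every SRPIN803 array, at -0.13 ± 0.06, -0.13 ± 0.06 and -0.11 ± 0.05 (limma's adjusted p from 0.273 to 0.320). The remaining 13 ran from -0.25 (EPRS1) to 0.04 (NARS1), with overlapping groups. In all 14 of 18 changes lay below 0 (77.8%, against 43.9% of all genes), with a median of -0.04. Dropping a single array left 10 (without SRPIN803 replicate 1) to 14 of 18 below 0, and the median was -0.07 without DMSO replicate 2, -0.06 without SRPIN803 replicate 2 and -0.08 with the mean of all probe sets per gene. The groups did not overlap, with SRPIN803 lower, in 5 of 18 (27.8%, against 10.4% of all genes), and in 0 of 18 with SRPIN803 higher (against 15.2%). The median over these genes of the deviation from each gene's DMSO mean was -0.08, -0.03 and -0.05 on the SRPIN803 arrays and -0.01, 0.01 and 0.01 on the DMSO arrays.

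For these genes the intervals cover the brightest probe set alone, and the spread behind them may be purely technical. Leaving out EPRS1, the 95% intervals of the 17 others lay between -0.34 (TARS1) and 0.20 (VARS1) on the log2 scale, and those of 15 lay within 0.3 of 0. Dimmer probe sets could lie outside that range. One of FARSB, at a mean level of 5.26, changed by -0.70 (interval -1.14 to -0.26), against -0.07 for the brightest. Its groups did not overlap but almost touched, at 5.2894 on SRPIN803 replicate 1 and 5.2942 on DMSO replicate 3. For that probe set limma's adjusted p was 0.119 over all probe sets. The dimmest FARSB probe set, at a mean level of 2.68, changed by -0.10. KARS1, the lysine enzyme of both compartments, read 13.05, 13.05 and 13.09 in SRPIN803 cells and 13.06, 13.01 and 13.12 in DMSO cells, an interval of -0.13 to 0.14. NARS1, for asparagine, read 12.50, 12.46 and 12.47 in SRPIN803 cells and 12.38, 12.48 and 12.46 in DMSO cells, an interval of -0.09 to 0.18. Array values were normalized to nearly the same distribution, so they are relative to the other transcripts and cannot show whether total RNA per cell changed.

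None of the multi-synthetase complex genes measured was called, and their difference from the other cytosolic enzymes was not tested. The 6 measured components (EPRS1, IARS1, LARS1, RARS1, KARS1 and AIMP1) had log2 changes of -0.25 to 0.07 with a median of 0.01, and the groups did not overlap in 0 of 6 (against 25.6% of all genes). Without EPRS1 the lowest was IARS1, for isoleucine, at -0.03 ± 0.06. AIMP1 was at 0.07 ± 0.06, with dimmer probe sets at -0.07 and -0.05. Among the 13 enzymes of the cytosol or of both compartments outside the complex, 12 lay below 0 (92.3%, against 43.9% of all genes), and the median was -0.07. Their groups did not overlap, with SRPIN803 lower, in 5 (38.5%, against 10.4% of all genes), and in 0 with SRPIN803 higher (against 15.2%). These 13 genes are bright, with a median level at the 89.8th percentile, and the shares of all genes are not matched for level.

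EPRS1 encodes the bifunctional enzyme that charges both glutamate and proline tRNAs. Its brightest probe set read 10.90, 10.11 and 10.83 in SRPIN803 cells and 10.77, 10.88 and 10.95 in DMSO cells, so that SRPIN803 replicate 2 stood apart from the 5 other arrays. Its log2 change was -0.25 ± 0.19 with all arrays and 0.0019 ± 0.087 without that replicate. A nearly equally bright probe set read 10.80, 10.79 and 10.78 in SRPIN803 cells and 10.66, 10.62 and 10.60 in DMSO cells. There SRPIN803 replicate 2 did not stand apart, every SRPIN803 array was higher, and the log2 change was 0.16 ± 0.06 (limma's adjusted p = 0.265 over all probe sets). The dimmest read 7.74, 6.25 and 7.50 in SRPIN803 cells and 7.61, 7.84 and 7.77 in DMSO cells, with SRPIN803 replicate 2 far below again. The log2 change of that probe set was -0.58 ± 0.34 with all arrays and -0.12 ± 0.11 without that replicate. The direction of EPRS1 is therefore not settled by these arrays.

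Of the 34 genes, 20 have several probe sets, and the 34 together have 72. All probe sets lay below 0 for 9 genes, all above 0 for 3 (AARS2, FARS2 and KARS1), and on both sides for 8. CARS1 was below 0 on all 4, at -0.13, -0.22, -0.35 and -0.20 from the brightest to the dimmest. Over all probe sets on the array, 2 of the 72 were called lower and 0 higher, against 1.03% and 1.19% of all 54613 probe sets. They were that of MARS2 (limma's adjusted p = 0.0444) and 1 of the 6 probe sets of RARS2, the mitochondrial arginyl-tRNA synthetase gene.

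That RARS2 probe set had log2 levels of 3.63, 3.46 and 3.61 in SRPIN803 cells and 4.12, 3.93 and 4.18 in DMSO cells. Its groups did not overlap, and its log2 change was -0.51 ± 0.09 (limma's adjusted p = 0.0328 over all probe sets, 0.0818 without SRPIN803 replicate 2). It lies below the median level of all probe sets, 5.27. The brightest probe set of RARS2 read 10.02, 10.10 and 10.09 in SRPIN803 cells and 9.98, 10.04 and 10.00 in DMSO cells, at 0.06 ± 0.07 in the same fit. The 4 others ranged from -0.19 to 0.11.

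**Figure D3:**
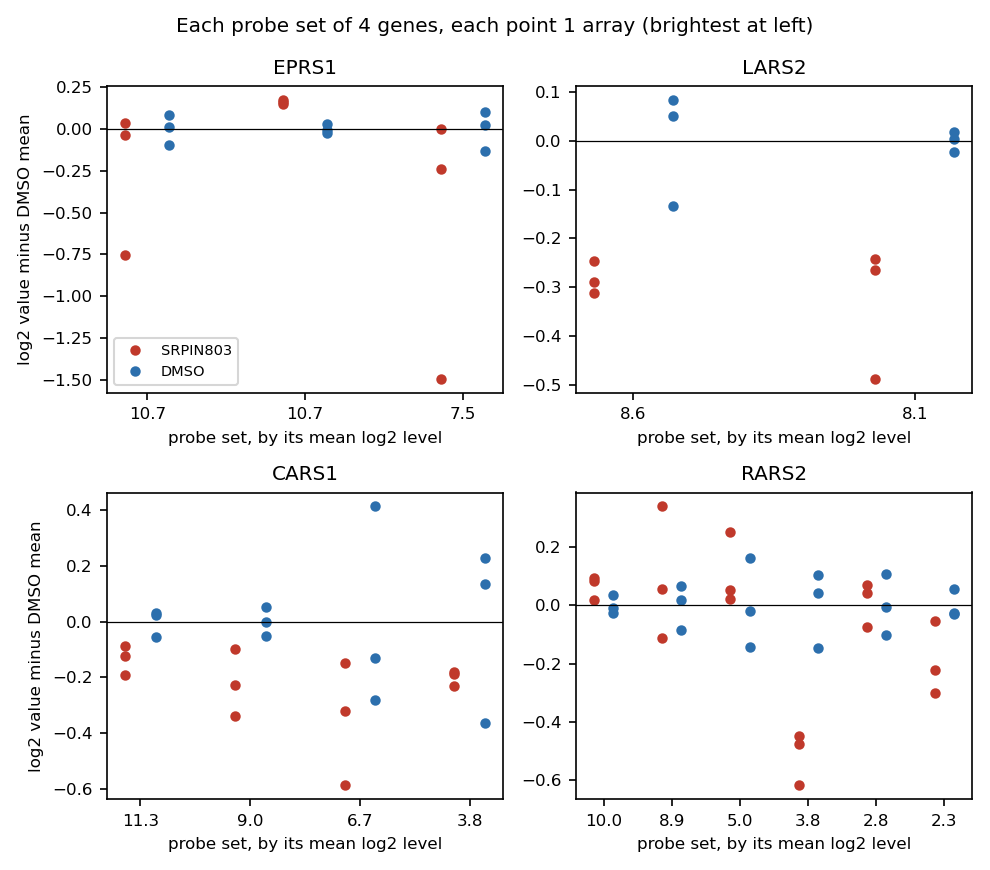
Each probe set of EPRS1, LARS2, CARS1 and RARS2, as the log2 value minus that probe set's DMSO mean, with 1 point per array and the brightest probe set at the left of each panel. SRPIN803 replicate 2 lies far below on 2 of the 3 EPRS1 probe sets, both LARS2 probe sets are lower in SRPIN803 cells, and 1 dim RARS2 probe set is lower while the brightest is not.

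Cytosolic and mitochondrial enzymes for the same amino acid could be set side by side in 15 pairs (EPRS1 pairs with both EARS2 and PARS2, and FARS2 with both FARSA and FARSB, so the pairs share genes). The change of the cytosolic gene lay below that of its mitochondrial partner in 11 pairs and above it in 4. The 11 include both EPRS1 pairs, in which EPRS1 counts at -0.25, against -0.11 for EARS2 and 0.08 for PARS2. Without SRPIN803 replicate 2 that EPRS1 probe set was at 0.0019, and the nearly equally bright EPRS1 probe set was at 0.16 with all arrays. The difference between partners did not overlap between groups in 4 of the 15 pairs, of leucine, tyrosine, asparagine and proline. Among all single genes the groups did not overlap in 25.6%, and the share over other pairs of genes was not computed. For leucine, LARS1 read 10.84, 10.97 and 10.91 in SRPIN803 cells and 10.85, 10.90 and 10.87 in DMSO cells. Its log2 change was 0.03, against -0.28 for LARS2, a difference of 0.31. For tyrosine, YARS1 read 10.25, 10.36 and 10.27 in SRPIN803 cells and 10.33, 10.34 and 10.34 in DMSO cells, at -0.04 against -0.27 for YARS2, a difference of 0.23. For histidine, HARS1 and HARS2 changed by nearly the same amount, -0.16 and -0.17. For asparagine the difference was -0.09, and for proline it was -0.33, which rests on the EPRS1 probe set with the low SRPIN803 replicate 2. No p-value is given for these differences, since with 3 arrays in each group the exact permutation p is at least 0.1.

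**Figure D4:**
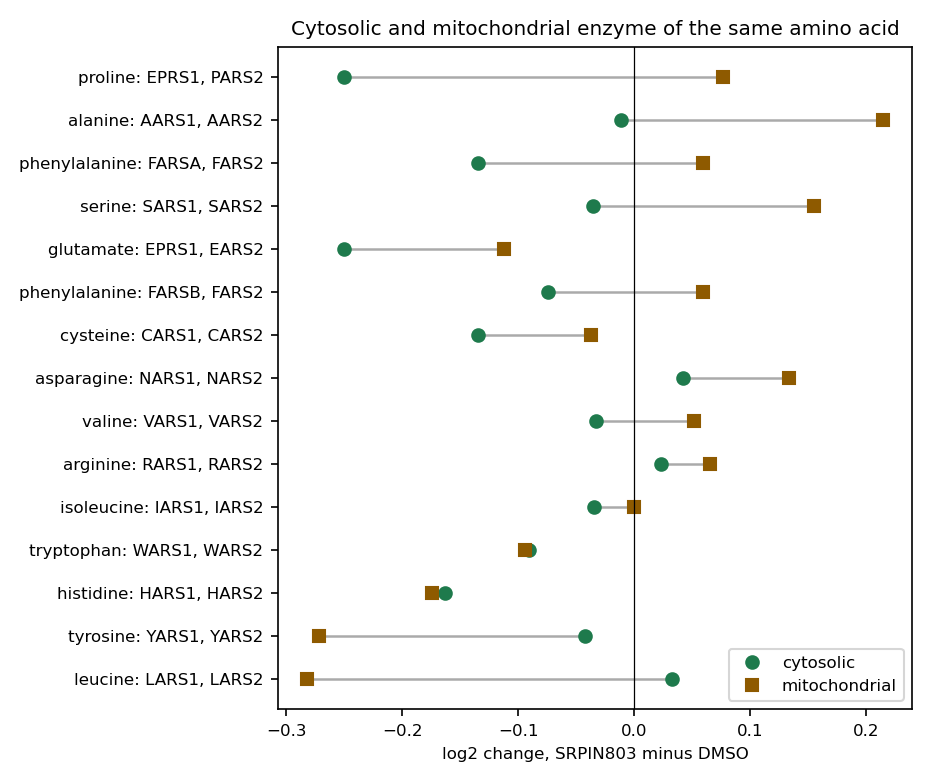
Log2 change (SRPIN803 minus DMSO) of the cytosolic gene (circle) and the mitochondrial gene (square) of the same amino acid, joined by a line and sorted by their difference. LARS2 and YARS2 lie to the left of their cytosolic partners, and the histidine genes nearly coincide.

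Several genes that make and modify the tRNAs fell. In a list of 44 genes for tRNA processing, modification and export, 41 were measured. Of these, 8 were called lower (19.5%, against 2.37% of all genes) and 0 higher (against 3.46%). Among the 9211 genes at least as bright as MARS2, 4.31% were called lower, and some genes of the list are dimmer than that. This list, like those that follow, was chosen with earlier results of these data known, so its share was not tested. The median log2 change was -0.08, and 29 of 41 lay below 0. PUS1, a pseudouridine synthase of cytosolic and mitochondrial tRNA, had log2 levels of 6.78, 6.86 and 6.74 in SRPIN803 cells and 7.50, 7.46 and 7.51 in DMSO cells. Its groups lay well apart, at a log2 change of -0.69 ± 0.06 (limma's adjusted p = 0.00165). TRNT1 adds the CCA end to which the amino acid is joined, and it read 9.17, 9.21 and 9.23 in SRPIN803 cells and 9.71, 9.83 and 9.77 in DMSO cells, at -0.57 ± 0.06 (limma's adjusted p = 0.0037).

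XPO5, a nuclear export receptor best known for microRNA precursors, read 8.67, 8.83 and 8.77 in SRPIN803 cells and 9.29, 9.35 and 9.39 in DMSO cells, at -0.59 ± 0.07 (limma's adjusted p = 0.00447). RPP40, a subunit of the RNase P that trims the 5′ end of tRNA, read 8.95, 8.96 and 8.86 in SRPIN803 cells and 9.48, 9.44 and 9.53 in DMSO cells, at -0.56 ± 0.06 (limma's adjusted p = 0.00418). Each of the 4 calls held in all 6 refits. Additional probe sets of XPO5 were at -0.55 and -0.20, and those of TRNT1 ranged from -0.63 to 0.04. The 4 others called, with values seen before they were named, were the pseudouridine synthase PUS7 (-0.39 ± 0.06), the cytosine methyltransferase NSUN2 (-0.36 ± 0.07), TRMT6 of the tRNA adenine methyltransferase (-0.36 ± 0.07) and the guanine methyltransferase METTL1 (-0.26 ± 0.06). PUS7 lost its call without DMSO replicate 3 (limma's adjusted p = 0.0658), NSUN2 and TRMT6 lost theirs in 5 of the 6 refits, and METTL1 in all 6. The count of genes called lower was 6 when SRPIN803 replicate 1 or 2 was dropped, 5 when SRPIN803 replicate 3 or DMSO replicate 1 or 2 was, and 4 when DMSO replicate 3 was. XPOT, the export receptor of tRNA itself, was at -0.10 with limma's adjusted p = 0.503.

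**Figure D5:**
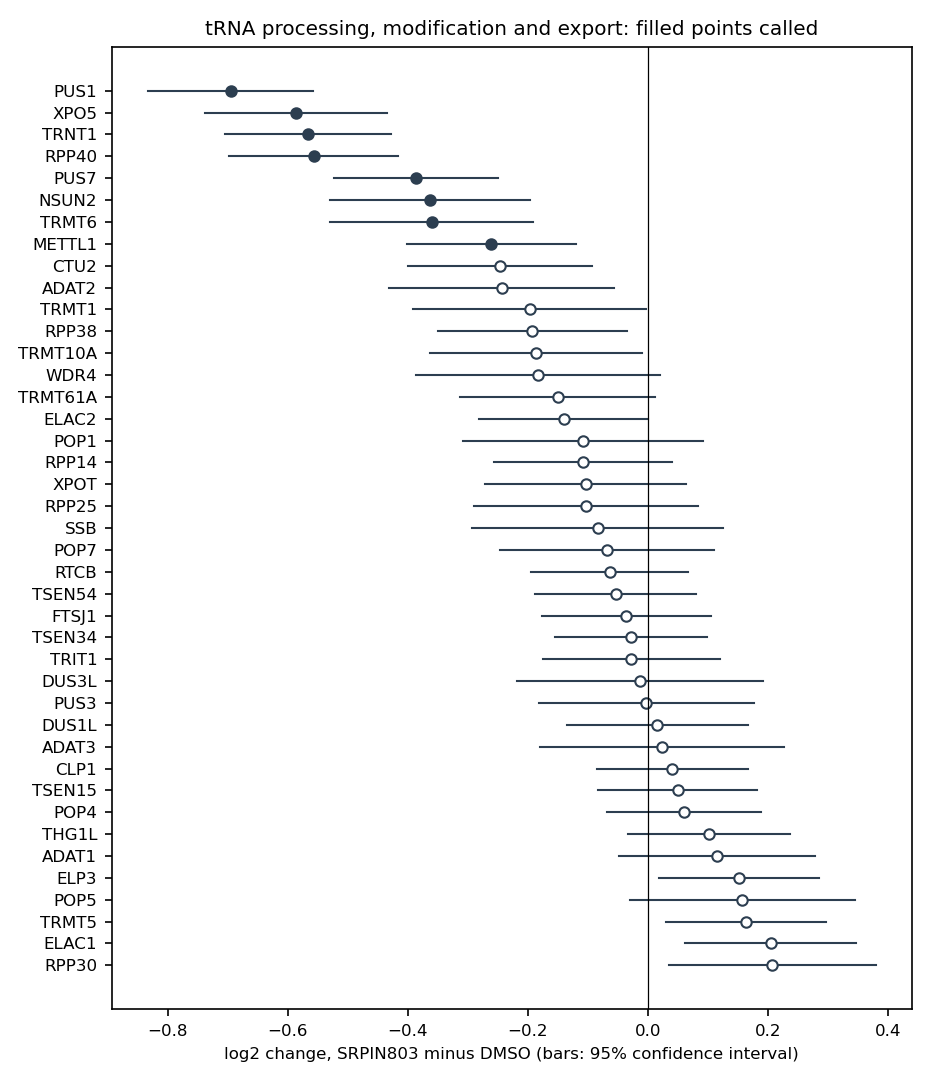
Log2 change (SRPIN803 minus DMSO) and 95% confidence interval of the 41 measured genes for tRNA processing, modification and export. The 8 filled points, all below 0, were called, from PUS1 at -0.69 to METTL1 at -0.26.

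Among 12 measured genes for partners of tRNA charging, such as elongation factors and the enzymes that convert a misacylated tRNA, 2 were called higher (16.7%, against 3.46% of all genes) and 0 lower. SEPSECS, which makes selenocysteine on its tRNA, read 6.89, 7.13 and 6.88 in SRPIN803 cells and 6.57, 6.41 and 6.49 in DMSO cells, at 0.48 ± 0.09 (limma's adjusted p = 0.0224). It lost the call without any 1 DMSO replicate (limma's adjusted p up to 0.0891). The 4 other SEPSECS probe sets, all above the median probe set level, ranged from 0.03 to 0.58. GATC, a subunit of the mitochondrial enzyme that makes glutaminyl-tRNA, was at 0.26 ± 0.06 (limma's adjusted p = 0.0439), a call lost with any 1 array left out (up to 0.138) and not seen on its other probe set, at -0.03.

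In a list of 33 genes of ATF4 and the amino acid response, 3 were called lower (9.09%, against 2.37% of all genes) and 1 higher (3.03%, against 3.46%), with a median log2 change of -0.01. ATF4 read 12.75, 12.78 and 12.69 in SRPIN803 cells and 12.74, 12.83 and 12.75 in DMSO cells, at -0.03 ± 0.06. ASNS, the asparagine synthetase gene that ATF4 is known to control, read 9.68, 9.68 and 9.69 in SRPIN803 cells and 9.62, 9.70 and 9.69 in DMSO cells, at 0.01 ± 0.06. Both were picked after their values were seen, and in each the groups overlapped. The 4 called genes were the pseudokinase gene TRIB3 (-0.56 ± 0.06), the cystine transporter gene SLC7A11 (-0.56 ± 0.09), the leucine transporter gene SLC7A5 (-0.37 ± 0.08) and the neutral amino acid transporter gene SLC38A2 (0.85 ± 0.15), which lies below the median probe set level. The TRIB3 call held in all 6 refits, with its dimmer probe set at -0.16. SLC7A11 lost its call without DMSO replicate 2 (limma's adjusted p = 0.0677) or 3 (0.0769), SLC7A5 kept its call in a single refit, the one that dropped SRPIN803 replicate 2 (adjusted p up to 0.163 in the others), and SLC38A2 lost its call in 4 of 6 refits (up to 0.0913). The 6 genes for enzymes of the cytosol or of both compartments with the ATF4 and C/EBP element in their promoter windows, shown above, were at -0.18 (TARS1), -0.13 (CARS1), -0.11 (GARS1), -0.03 (IARS1), -0.01 (AARS1) and 0.04 (NARS1), none of them called.

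Over the whole array, 1154 of 19775 genes were called (5.84%), and the groups did not overlap in 25.6%. Medians of the 6 arrays lay between 5.25 and 5.28, and arrays of the same group correlated at 0.9957 to 0.9977, those of different groups at 0.994 to 0.9961. Of 12 retinal pigment epithelium markers, MITF (mean level 10.22) and OTX2 (10.47) were bright. RPE65, LRAT, TYRP1 and MERTK lay below the median probe set level of 5.27, and the others lay between 5.34 (PMEL) and 6.75 (SERPINF1). MITF was the 1 marker called, at 0.35 ± 0.07. KRT8 and KRT18 were bright and 3 of 5 epithelial markers were dim. Also dim were 3 of 6 fibroblast, 2 of 3 immune and 3 of 4 endothelial markers. In these lists and the epithelial one, 0 were called. Among the fibroblast markers COL1A1 was about as bright as MITF and OTX2, at 10.44, and PDGFRB was at 7.64. Actin control probes at the 5′ end minus those at the 3′ end, which falls as RNA degrades, gave -2.16, -1.46 and -1.67 on the SRPIN803 arrays and -1.99, -1.90 and -1.41 on the DMSO arrays, so the groups overlapped.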

How the data were processed

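Expression was measured on 6 Affymetrix 3′ arrays. The log2 values deposited by the authors, 1 per probe set and array, come from RMA according to the submitters' processing notes. The program, its version and its settings were not given in the sources used here. RMA equalises the arrays and compresses changes of dim probe sets. Of 54675 probe sets, 62 are controls, 41091 name 1 gene in the platform annotation, 1801 name several, and 11721 are unnamed here.

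Values were used as deposited, unfiltered, with the brightest probe set for each of 19775 genes. The groups were tested two-sided in limma 3.58.1 (R 4.3.3) by lmFit and eBayes, on 4 residual degrees of freedom with no covariate, and p-values were adjusted over all genes by Benjamini-Hochberg. Each ± after a log2 change is a standard error from limma. The code was tested on simulated data. Having 3 arrays per group limits the precision.

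The members and gene lists were chosen with earlier results of these data known, so lists were counted and not tested. The motifs were chosen after the results were seen. Values on every array were to be given for called members, for their partner in the other compartment, and for the 4 uncalled members of smallest p; up to 4 called genes were named per list. Others were picked after their values were seen. Promoter sequences are RefSeq's (GRCh38.p14). Alternatives were a block for the replicate number, dropped arrays, filters, the choice of probe set, normalizations, variance models, array weights and thresholds. Plots used matplotlib 3.10.9 in Python 3.11.15.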

Additional observations from a re-analysis of the deposited data

How the results depend on the processing

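Among the 34 genes, 29 kept the side of the threshold they had under every setting run for them. MARS2 lost its call with the replicate number as a block (log2 change -0.54, limma's adjusted p = 0.0718) and in 5 of 6 refits that each dropped a single array, and it was called in the 10 other settings that tested it at the 0.05 threshold. Filters on level refitted limma on fewer genes, whereas the mean of all probe sets and the trended variance kept every gene. LARS2 was called among genes above the median level (limma's adjusted p = 0.018), with the mean of all probe sets (0.0275) and with a trended variance (0.0228). YARS2 was called above the median level (0.0429), and HARS2 above the median level (0.0478) and the 75th percentile (0.0362). NARS2, higher, was called above the 75th percentile (0.0462). So the count of genes called lower was 4 above the median level, 2 with the mean of all probe sets, 2 with a trended variance, 0 with the replicate block, 0 at an adjusted p under 0.01, 2 at one under 0.1, and 0 to 1 with 1 array left out, and that called higher was 1 above the 75th percentile and 0 in the other settings. No direction was reversed in a called gene. Over all genes the count called in either direction was 1154 in the main fit, 689 with the block and 886 with the mean of all probe sets. It was 1943 above the median level, 929 above the 75th percentile and 1965 with a trended variance. Thresholds of 0.01 and 0.1 gave 285 and 1991, and leaving 1 array out gave 324 to 687. The share of all genes called lower was not computed for each setting, so the counts of the 34 genes have no such background there. Deviations of same-numbered arrays from their group correlated at 0.18, -0.06 and 0.11, and those of differently numbered arrays at -0.21 to 0.13. With 3 arrays per group these values cannot show whether the numbers are pairs. The labels give no covariate, so the main fit took no pairs, and the fit with the block stands beside it. The tRNA processing list, whose settings were added after seeing the data, had 5 genes called lower with the block, 5 above the 75th percentile, 5 when all probe sets were tested, and 4 to 6 with 1 array left out. The cause of the other shifts was not tested. With 3 arrays per group, the 95% intervals of most of the 34 genes span 0.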
